A study of Drosophila melanogaster with 3 samples.

Results

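Hipk and pan are 2 genes of the Wnt pathway of Drosophila melanogaster, taken here from 6502 genes with at least 1 called interval in a crosslinking map of Aubergine (Aub). Their intervals are those assigned to the gene IDs FBgn0035142 (Hipk, chromosome 3L) and FBgn0085432 (pan, chromosome 4). The genes were chosen by their high numbers of intervals in these same libraries, so those numbers are a description and were not tested. Cultured germline stem cells with GFP-tagged Aub gave 3 iCLIP libraries, numbered 1 to 3. In iCLIP, ultraviolet light crosslinks RNA to bound protein, the complex is purified, and its RNA is sequenced. All libraries came from the same genotype without drug treatment. It carried 1 copy of UASp-GFP-aub, and the transgene was driven in germ cells by nos-gal4. The bam locus was mutant on both homologues (bam∆86), 1 of which also carried a heat-shock-inducible bam rescue, hs-bam. The line lacks a working copy of the differentiation gene bam at its own locus and cannot stand for a normal mixture of germline stages. The 3 libraries form a single group. No control library, other genotype or measurement of RNA abundance was analysed here. An interval therefore records a call in a gene and cannot separate an abundant transcript from a strongly bound one.

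The Wnt pathway of Drosophila starts when a secreted Wnt such as Wingless binds Frizzled and Arrow receptors, which protects Armadillo (the fly beta-catenin) from destruction. Armadillo then enters the nucleus and joins Pangolin, the product of pan, a DNA-binding protein of the TCF/LEF family that represses Wnt target genes with Groucho when Armadillo is absent. Hipk encodes homeodomain-interacting protein kinase, a mainly nuclear serine/threonine kinase that promotes Wingless signalling by stabilising Armadillo, and that also acts on Yorkie, the effector of the Hippo pathway. In the ovary, Wnt signalling is best known from the somatic cells that surround the germline. Aub itself belongs to the Piwi family, whose members are guided by piRNAs to silence transposons in germ cells.

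The libraries differed in size. Replicate 1 was the smallest with 4007 intervals (1459 genes), followed by replicate 3 with 11798 (3310 genes) and replicate 2 with 36157 (6364 genes). The deposited score was 0 for every interval, so the number of reads behind an interval is unknown and every interval was given the same weight. Whether the libraries are separate cultures is not stated in the labels, and differences between them may be technical. The pathway could not be followed further: of 37 other Wnt genes and 9 Hippo genes chosen by symbol and found in a RefSeq gene table, 0 could be matched to a gene ID of the files, and neither could any of 14 germline, somatic, muscle and neuronal markers. The cell type was therefore not checked against its markers.

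Hipk, the kinase gene, was called 16 times in replicate 1, 74 times in replicate 2 and 21 times in replicate 3. These intervals were 0.399% (95% Wilson interval 0.246 to 0.648), 0.205% (0.163 to 0.257) and 0.178% (0.116 to 0.272) of the libraries. The share was highest in replicate 1. The Wilson intervals of all libraries overlapped, and the differences between libraries were not tested. Its mean share was 0.261% ± 0.121 (SD, n = 3), rank 9 of the 6502 genes. By number of intervals Hipk ranked 8 of 1459 genes in replicate 1, 4 of 6364 in replicate 2 and 20 of 3310 in replicate 3, where it was tied with 3 others. It was the most heavily covered gene of 3L in replicates 1 and 2.

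The gene of the transcription factor, pan, was called 6 times in replicate 1, 76 times in replicate 2 and 20 times in replicate 3. These intervals were 0.150% (0.0686 to 0.326), 0.210% (0.168 to 0.263) and 0.170% (0.11 to 0.262) of the libraries. The shares of pan lay closer together than those of Hipk, with a mean of 0.176% ± 0.031 (SD, n = 3). Its ranks were 97 of 1459, 3 of 6364 and 24 of 3310, with 52 genes at 6 intervals in replicate 1. Within chromosome 4, pan held 4.08%, 8.15% and 6.04% of the intervals in replicates 1, 2 and 3 and ranked 5 of 44, 1 of 71 and 2 of 57 genes.

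Both genes thus had close to equal numbers in replicates 2 and 3, with 0.974 and 1.05 intervals of Hipk for each of pan. In replicate 1 Hipk had 2.67 for each of pan, a ratio that rests on the 6 intervals of pan. The shares of the pair had overlapping Wilson intervals in every library, and their difference was not tested. A bound gene had on average 2.75, 5.68 and 3.56 intervals in replicates 1, 2 and 3. Hipk held 5.83, 13.02 and 5.89 times this average and pan 2.18, 13.4 and 5.61 times. Both had intervals in all 3 libraries, as did 20.9% of all genes.

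**Figure D1:**
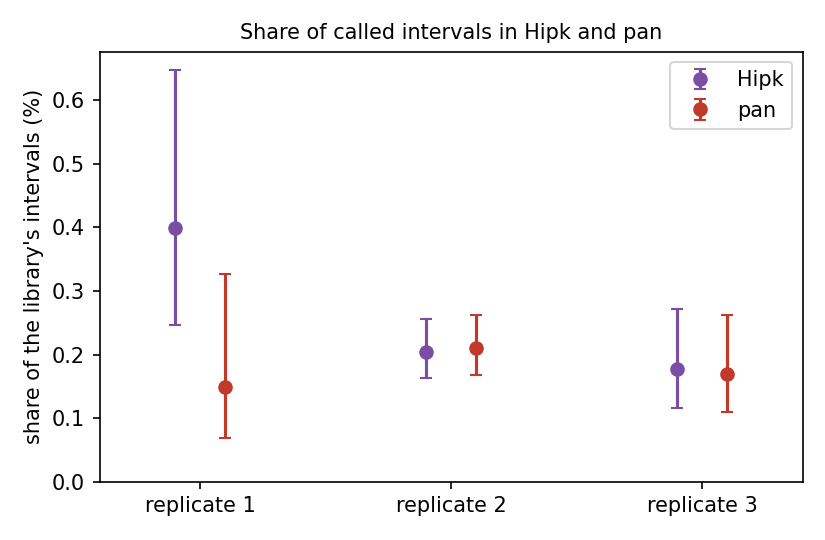
Share of each library's called intervals (%) in Hipk and pan, with 95% Wilson intervals that cover counting error only. Hipk stood at 0.399% and pan at 0.150% in replicate 1, and the genes nearly coincided in replicates 2 and 3.

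Likeness to other genes was measured over the 3 libraries, as the Euclidean distance between values of log2 (intervals per 1000000 of the library, plus 1). Among the other 1360 genes with intervals in all libraries, FBgn0261836 on 2L was closest to Hipk, with 21, 70 and 25 intervals in replicates 1, 2 and 3 (distance 0.47). FBgn0262735 on X followed with 13, 60 and 18 (0.48). The third, also on X, had 23, 67 and 18 intervals (0.59). Closest to pan were FBgn0026206 on X with 7, 82 and 15 intervals (0.48) and FBgn0261617 on X with 4, 70 and 19 (0.60). The third, on 3R, had 5, 54 and 17 (0.61). The files pair these IDs with no gene names. Hipk and pan were not each other's closest match. Their distance was 1.42, which placed pan at rank 33 for Hipk and Hipk at rank 47 for pan. This distance and both ranks rest mainly on replicate 1, with 16 intervals of Hipk and 6 of pan. The numbers were 74 and 76 in replicate 2 and 21 and 20 in replicate 3.

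Along the chromosome, the intervals of Hipk lay on the plus strand of 3L between positions 543135 and 577876 (build dm3, counted from 1), a span of 34742 nt. Those of pan lay on the plus strand of chromosome 4 between 90093 and 134393, a span of 44301 nt. No interval of another gene fell within either span on either strand, and none of the intervals was also assigned to a second gene. Only 4.53% of the span of Hipk (1574 nt) and 3.24% of that of pan (1435 nt) was covered in any library. In both genes the intervals gathered near the ends of the span, with a long empty stretch between them. No transcript annotation of dm3 was used here, so the stretches below are not assigned to exons, introns or UTRs.

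**Figure D2:**
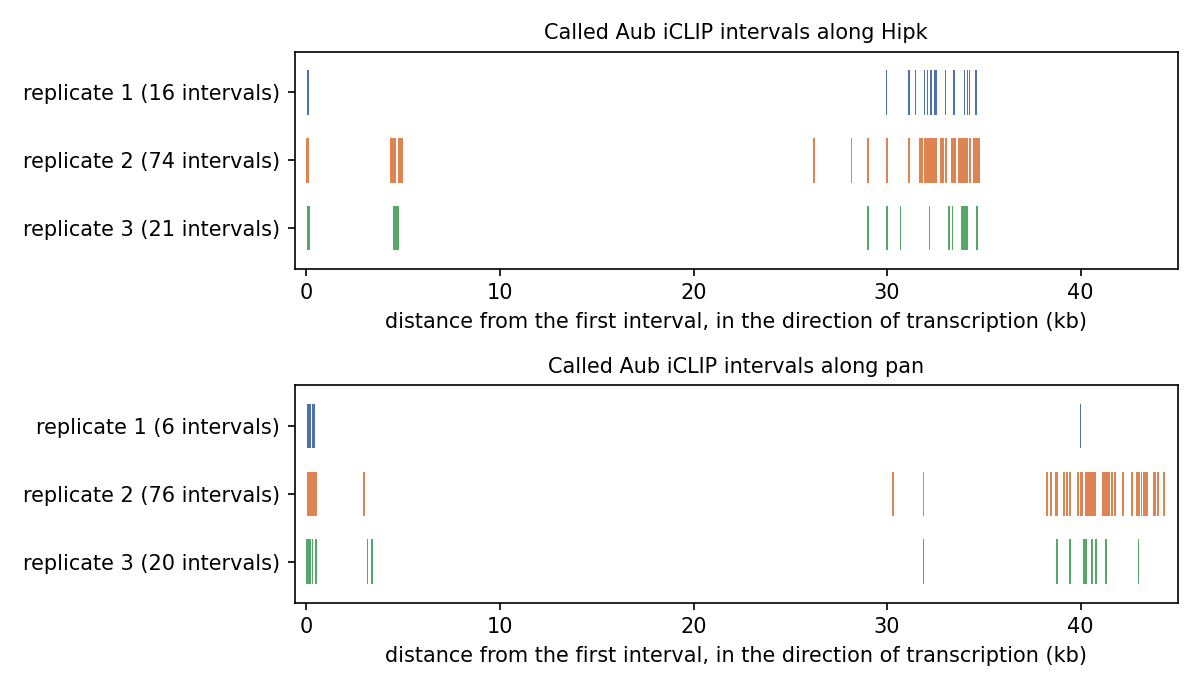
Called intervals of Hipk (top) and pan (bottom) by library, against the distance in kb from the gene's first interval in the direction of transcription. Each bar is 1 interval, and narrower ones were widened to 80 nt so that they can be seen. In Hipk most bars lie in the last part of the span in every library, whereas in pan replicate 1 has 5 of its 6 bars at the start.

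Intervals of all libraries that lay within 1000 nt of each other were joined into stretches, which gave 4 in Hipk. The first, from 543135 to 543277, was called in every library, with 1, 2 and 3 intervals in the order of their numbers. The second, from 547482 to 548067 and 4204 nt further on, held 0, 12 and 4. It was thus filled in replicates 2 and 3 and empty in replicate 1, in which 0 of 16 intervals has an upper Wilson bound of 19.4%. After a gap of 21258 nt a single interval of replicate 2 lay at 569326 to 569327.

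The last stretch of Hipk, from 571252 to 577876 (6625 nt), held 15 of the 16 intervals of replicate 1 (93.8%, 71.7 to 98.9). In replicate 2 it held 59 of 74 (79.7%, 69.2 to 87.3) and in replicate 3 it held 14 of 21 (66.7%, 45.4 to 82.8). Most intervals of Hipk therefore fell in the same 6625 nt in each library, and the Wilson intervals overlapped. The mean was 80.05% ± 13.5 (SD, n = 3). By covered length the stretch held 333, 982 and 161 nt in replicates 1, 2 and 3. Its density was 2.26, 8.91 and 2.11 intervals per kb, not scaled to library size. The bounds of the stretch were drawn from the calls of all libraries together. Shares of stretches were not computed over all genes, so what is usual in these libraries is unknown.

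The same rule gave 5 stretches in pan. The first, from 90093 to 90551 (459 nt), held 5 of the 6 intervals of replicate 1 (83.3%, 43.6 to 97.0), 9 of the 76 of replicate 2 (11.8%, 6.36 to 21.0) and 9 of the 20 of replicate 3 (45%, 25.8 to 65.8). Replicates 2 and 3 thus had equal numbers there, at very different shares of the gene. The Wilson interval of replicate 2 lay below those of the other libraries, which overlapped. The differences between libraries were not tested. The mean was 46.7% ± 35.8 (SD, n = 3) and fell to 28.4% without replicate 1. By covered length the first stretch made up 108 of 133 nt of the gene in replicate 1 (81.2%), 322 of 1288 nt in replicate 2 (25%) and 208 of 346 nt in replicate 3 (60.1%). The order of the libraries was the same by length and by number.

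Between the ends of pan the calls were few. The second stretch, from 93023 to 93450, was empty in replicate 1 and had 2 intervals in each of the others. After a gap of 26917 nt, 1 interval of replicate 2 lay at 120368 to 120375, and 1 each of replicates 2 and 3 lay between 121927 and 121951.

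The last stretch of pan, from 128298 to 134393 (6096 nt), held 1 of 6 intervals in replicate 1 (16.7%, 3.01 to 56.4), 63 of 76 in replicate 2 (82.9%, 72.9 to 89.7) and 8 of 20 in replicate 3 (40.0%, 21.9 to 61.3). Most of its calls were therefore those of replicate 2, at 10.3 intervals per kb against 0.164 and 1.31 in replicates 1 and 3. These densities are not scaled to library size, and replicate 2 was the largest library. The calls of replicate 1 ended at 130068 and those of replicate 3 at 133039. Replicate 2 had a further 21 intervals beyond that point, from 133070 to 134393, which were 27.6% of its intervals in pan. Hipk and pan had almost the same share of replicate 2 in their last stretches. In replicate 1 the shares were 93.8% and 16.7%, with Wilson intervals that did not overlap, but pan had 6 intervals there. In replicate 3 they were 66.7% and 40.0%, with intervals that overlapped. These differences between the genes were not tested.

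**Figure D3:**
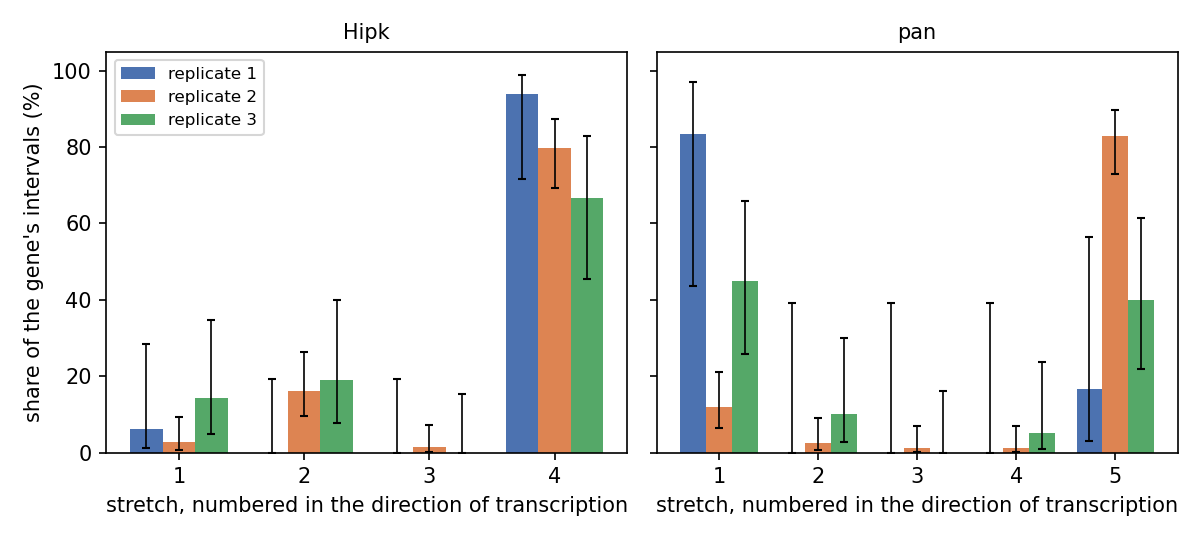
Share of a gene's intervals (%) in each stretch, numbered in the direction of transcription, for Hipk (4 stretches) and pan (5 stretches). Bars are libraries and error bars are 95% Wilson intervals, which cover counting error only. The last stretch of Hipk holds 66.7% to 93.8% of its intervals in each library, and pan divides between its first and last stretch in different proportions.

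At finer scale, intervals were joined into regions where they lay within 50 nt. Hipk had 25 regions, of which 6 had an interval in all 3 libraries (24.0%), 8 in 2 and 11 in 1. Over all genes 4.69% of 26114 regions had intervals in all libraries. The share was 11% for the 83 genes with 50 or more intervals summed over the libraries, to which both genes belong and which was set after seeing the data. The 6 common regions of Hipk lay at the ends of its span, 1 in the first stretch and 5 in the last. They were at 543135 to 543277 (1, 2 and 3 intervals in replicates 1, 2 and 3), at 573061 to 573116 (1 in each), and at 575276 to 575434 (1, 4 and 1). Towards the end they lay at 576416 to 576677 (2, 5 and 1), at 576893 to 577279 (2, 8 and 4) and at 577565 to 577876 (1, 6 and 3). The calls of a common region did not have to coincide. In the region at 575276 to 575434, replicate 1 was called at 575366 to 575390 and replicate 3 at 575276 to 575293. Across the gene, 2 of the 16 intervals of replicate 1 lay within 10 nt of one of replicate 3 (12.5%, against 33% over all genes). With a library left out, a region had to be called only in the other libraries, which is a laxer rule. It gave 12 common regions without replicate 3, 10 without replicate 1 and 6 without replicate 2.

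No single region led in Hipk. The regions at 575020 to 575210 (2, 12 and 0 intervals) and at 576893 to 577279 were level with 14 intervals each. The first of them was empty in replicate 3 and 134 of its 191 nt were covered in replicate 2 (70.2%). It held 12.5%, 16.2% and 0% of the intervals of the gene, a mean of 9.57% ± 8.50 (SD, n = 3), or 14.4% without replicate 3. The upper Wilson bound for replicate 3 was 15.5%. The other of the tied regions held 12.5%, 10.8% and 19.0%, a mean of 14.1% ± 4.35 (SD, n = 3).

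In pan, 1 of 32 regions had intervals in all 3 libraries (3.13%), against 8 in 2 libraries and 23 in 1. This common region was the first stretch described above, and it held 23 of the 102 intervals of the gene. Without replicate 1, which had 6 intervals in the gene, 8 regions were common to the other libraries. The next largest regions held 9 intervals each, at 130442 to 130868 (0, 7 and 2) and at 133294 to 133496 (0, 9 and 0). The region at 134340 to 134393 held 6 intervals, all of replicate 2.

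The weight of the leading region in each gene depended on the library and on the joining distance. In replicate 2 it was 16.2% (9.53 to 26.2) in Hipk and 11.8% (6.36 to 21.0) in pan, in the opposite order to the means of 9.57% and 46.7%. Joining within 200 nt gave means of 43.5% and 46.7%, and joining within 10 nt gave 5.69% and 28.0%. Among 68 genes with at least 50 intervals in all and at least 5 in each library, the mean share of the leading region ranged from 8.33% to 60.8%, with a median of 17.2%. One of these genes had a higher mean than pan. For Hipk 61 did with the first of its tied regions and 44 with the other. The share in pan ranged over 71.5 percentage points between libraries, the largest range of the 68, against a median of 18.9 points. In Hipk it was 16.2 points with the first of the tied regions and 8.24 with the other. Replicate 1 had 6 intervals in pan, so a single interval there moved the share by 16.7 points.

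The first stretch of pan could be read interval by interval. Replicate 1 had intervals at 90109 to 90142, 90161 to 90165, 90237 to 90270, 90376 to 90406 and 90446 to 90449. In replicate 2 the interval at 90237 to 90270 (34 nt) was called with the same edges. In replicate 3 the nearest call, also of 34 nt, lay 8 nt further on at 90245 to 90278. The call of replicate 1 at 90376 to 90406 lay inside one of replicate 2 (90347 to 90415) and one of replicate 3 (90370 to 90418). Towards the end of the stretch replicate 3 had calls at 90527 to 90548 and 90550 to 90551. Replicate 2 had calls at 90531 to 90534 and 90539 to 90540, and replicate 1 had none there.

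**Figure D4:**
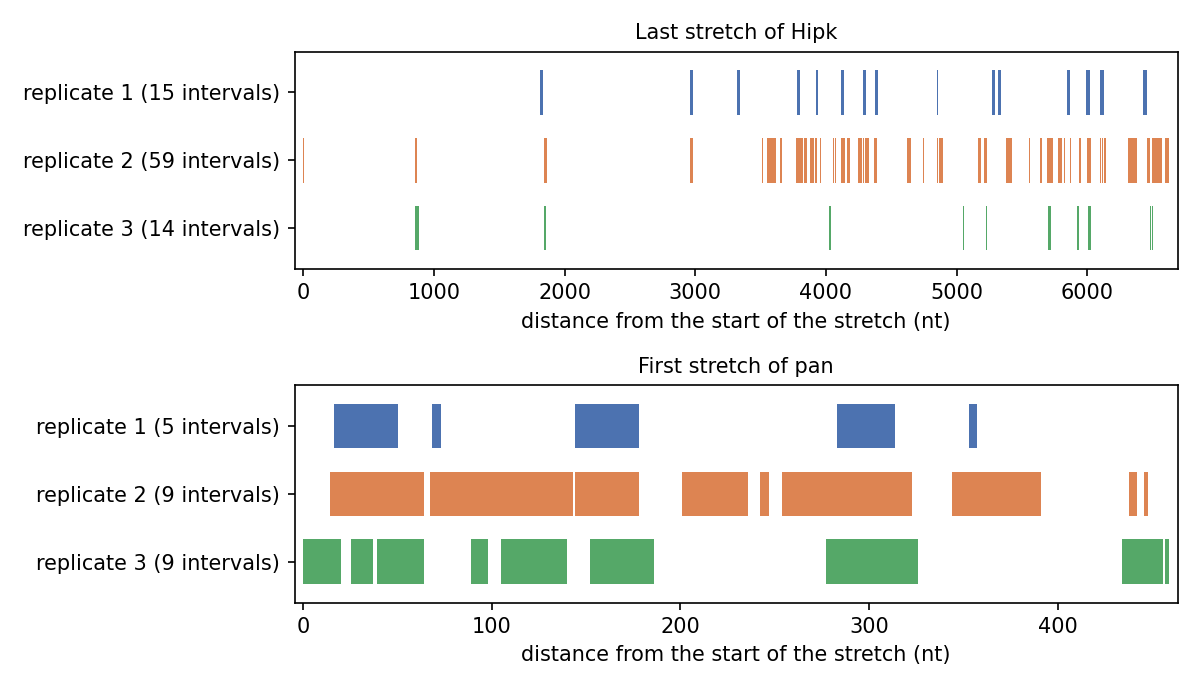
Called intervals, drawn to scale, in the last stretch of Hipk (top, 6625 nt) and the first stretch of pan (bottom, 459 nt), by library against the distance in nt from the start of the stretch. In pan the bars of all libraries fall on top of each other in several places, whereas in Hipk those of replicates 1 and 3 mostly lie at different positions. The stretch of pan was densely covered, at 23.5%, 70.2% and 45.3% in replicates 1, 2 and 3, and the part of this in the overlaps was not tested.

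Recurrence was then counted for single intervals, as the presence of an interval of another library on the same strand within 10 nt. Of the 16 intervals of replicate 1 in Hipk, 14 recurred in replicate 2 (87.5%, 95% Wilson interval 64.0 to 96.5), against 59.9% over all genes and 64.4% in the 83 heavily covered genes. In replicate 3, 2 of the 16 recurred (12.5%, 3.50 to 36.0), against 33% over all genes and 34.4% in the heavily covered genes. The 2 lay at 543189 to 543213 and 577245 to 577269, in the first and the last stretch. Of the 21 intervals of replicate 3 in Hipk, 17 recurred in replicate 2 (81.0%, 60 to 92.3), against 46.6% over all genes and 59.7% in the heavily covered genes. In replicate 1, 2 of the 21 recurred (9.52%, 2.65 to 28.9), against 12% over all genes. Replicates 1 and 3 of Hipk thus each recurred mostly in replicate 2 but seldom in each other. Over all genes, too, each of them recurred more in replicate 2 than in the other. The Wilson interval of Hipk for replicate 1 in replicate 3 included the values of all genes and of the heavily covered genes.

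In pan, all 6 intervals of replicate 1 recurred in replicate 2 (100%, 61.0 to 100) and 4 of them in replicate 3 (66.7%, 30.0 to 90.3). All of these 4 lay in the first stretch. Of the 20 intervals of replicate 3 in pan, 15 recurred in replicate 2 (75.0%, 53.1 to 88.8) and 6 in replicate 1 (30.0%, 14.5 to 51.9). All 6 again lay in the first stretch. Of the nucleotides of that stretch, 23.5%, 70.2% and 45.3% were covered in replicates 1, 2 and 3. The part of this dense calling in the matches was not tested. Over all genes 12% of the intervals of replicate 3 recurred in replicate 1, in the heavily covered genes 19.5% did, and in Hipk 2 of 21 did (9.52%, 2.65 to 28.9). The Wilson intervals of Hipk and pan overlapped for each of these pairs, and the difference between the genes was not tested.

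Seen from the largest library, most calls had no counterpart. Of the 74 intervals of replicate 2 in Hipk, 23 recurred in replicate 1 (31.1%, 21.7 to 42.3) and 16 in replicate 3 (21.6%, 13.8 to 32.3), against 7.6% and 17% over all genes. In the heavily covered genes these values were 15.1% and 25.5%. Of the 76 in pan, 8 recurred in replicate 1 (10.5%, 5.43 to 19.4) and 14 in replicate 3 (18.4%, 11.3 to 28.6). Calls near both other libraries made up 4 of 74 in Hipk and 4 of 76 in pan, against 3.6% of all intervals of replicate 2 and 7.04% of those in the heavily covered genes. Replicate 2 had the densest calls, and their part in matches within 10 nt was not tested.

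**Figure D5:**
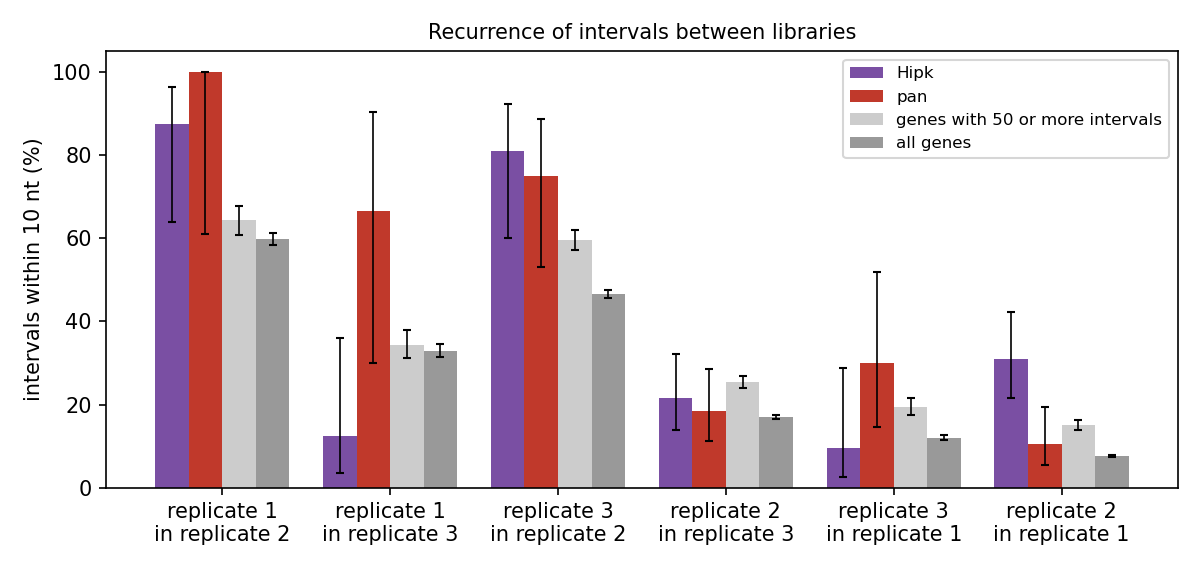
Share (%) of the intervals of one library with an interval of another library on the same strand within 10 nt, for Hipk, pan, the 83 genes with 50 or more intervals, and all genes. Error bars are 95% Wilson intervals, which treat intervals as independent. Hipk stands at 87.5% for replicate 1 in replicate 2 and at 12.5% for replicate 1 in replicate 3 (14 and 2 of 16 intervals). The values of pan are 100% and 66.7% (6 and 4 of 6 intervals), and the difference between the genes was not tested.

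By nucleotide, 16 nt of Hipk and 84 nt of pan were covered in all 3 libraries, although 1574 and 1435 nt were covered in any. Replicate 1 covered 358 nt of Hipk, of which 168 (46.9%) were covered in replicate 2 and 16 (4.47%) in replicate 3. In pan it covered 133 nt, of which 115 (86.5%) were covered in replicate 2 and 84 (63.2%) in replicate 3. Nucleotides covered in all 3 libraries were thus more numerous in pan, where all of them lay in the densely covered first stretch. Those covered in exactly 2 were more numerous in Hipk, with 300 nt against 164. These overlaps by nucleotide were not computed over all genes, so what is usual in these libraries is unknown. Among the intervals of replicate 1, the 5′ edge was shared with replicate 2 by 1 of 16 in Hipk, at 576522, and by 1 of 6 in pan, at 90237, against 5.14% over all genes. No 5′ edge was shared between replicates 1 and 3 in either gene, against 3.06% of the intervals of replicate 1 over all genes. Between replicates 3 and 2, 2 of 21 intervals in Hipk shared the 5′ edge and none of 20 in pan did, against 4.04% over all genes. For the 3′ edge the order of the genes was reversed, with 0 of 21 in Hipk and 2 of 20 in pan, against 4.58% over all genes. Between replicates 1 and 2 the 3′ edge was shared by 0 of 16 in Hipk and 1 of 6 in pan, against 5.19% over all genes.

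The intervals differed in width between libraries as well. In Hipk the median width was 25 nt in replicate 1, 11.5 nt in replicate 2 and 16 nt in replicate 3. A width of exactly 25 nt was found for 11 of 16 intervals in replicate 1 (68.8%), 4 of 74 in replicate 2 (5.41%) and 6 of 21 in replicate 3 (28.6%), against 52.1%, 9% and 47.5% over all genes. In pan this width was found for 1 of 6 (16.7%), 1 of 76 (1.32%) and 3 of 20 (15.0%). The median width in pan was 28, 8 and 13 nt. Intervals of 5 nt or less made up 26 of 74 in Hipk (35.1%) and 29 of 76 in pan (38.2%) in replicate 2, against 28.3% over all genes. In replicate 3 they were 4 of 21 in Hipk and 1 of 20 in pan, against 11.2%, and in replicate 1 they were 0 of 16 and 2 of 6, against 8.56%. Wide intervals of 50 nt or more occurred only in replicate 2 in these genes. There were 5 in Hipk (6.76%) and 8 in pan (10.5%), against 5.38% over all genes of that library, 0.674% in replicate 1 and 0.797% in replicate 3. The widest in each gene had 102 nt, at 543176 to 543277 in the first stretch of Hipk and at 131672 to 131773 in the last stretch of pan.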

How the data were processed

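The authors deposited a list of called intervals for each of 3 libraries, with chromosome, start, end, strand, FlyBase gene ID and a score that is 0 in every row. The coordinates are those of build dm3, per the submitters' processing notes, which name CASAVA 1.4 and TopHat2 2.0.13. The sources used here do not give the peak caller, its threshold or the treatment of PCR duplicates. Each library had a 4-nt experimental and a 5-nt random barcode, and cells received 150 mJ/cm2 at 254 nm, per the labels.

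Rows were selected by gene ID, and starts were converted to count from 1. The symbols were given with the IDs. A RefSeq table of the Release 6 assembly lists both symbols on the same chromosomes but not the IDs. The 95% Wilson intervals of shares cover counting error only and take calls as independent of each other. Whether they overlap is given as a description and is not a test. Recurrence used 1 row per position, strand and library, and a distance of 10 nt. Regions joined intervals within 50 nt and stretches within 1000 nt. The overlap and joining functions were tested on simulated data against exhaustive searches. The named genes were Hipk and pan, the 3 genes closest to each, and any listed pathway gene that could be matched. Of the 3 closest, the third is given by its values alone. The members, lists and rules were chosen with earlier results of these data known. No test was run, since the genes were chosen for their intervals and the libraries form 1 group. The software was matplotlib 3.10.9, scipy 1.17.1, pandas 2.3.3 and numpy 2.4.6 under Python 3.11.15.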

Additional observations from a re-analysis of the deposited data

How the results depend on the processing

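Of 84 alternative values, 63 stayed within 1 SD (means) or within 1.5 times (counts). The SD was that of the replicates, or that of the library pairs for recurrence. Leaving out 1 of 3 libraries can hardly shift a mean over libraries by 1 SD, so stability there says little. Joining neighbours within 10 nt, every alternative for the last stretch, and covered length and the other tied region for the leading region were chosen after seeing the data. At or above the median width, Hipk kept 35 intervals in replicate 2 and 6 in replicate 3, and pan kept 30 and 6, with a mean share for pan of 0.139% in place of 0.176%. Joining neighbours left 49 intervals of Hipk and 47 of pan in replicate 2. The mean recurrence over the pairs 1 in 2, 1 in 3 and 3 in 2 was 60.3% for Hipk and 80.6% for pan. It fell to 5.26% and 5.56% with an exact 5′ edge. Leaving out a library leaves a single pair, and the values of these pairs ranged from 12.5% to 87.5% for Hipk and from 66.7% to 100% for pan. The 6 common regions of Hipk became 1 with 2 intervals required in each library and 4 with joining within 10 or 200 nt. They became 6 to 12 with a library left out, when only the other libraries were required. The 1 of pan became 2 with joining within 10 or 200 nt and 2 to 8 with a library left out. Joining within 200 nt raised the mean share of the leading region of Hipk from 9.57% to 43.5%. The mean share of the last stretch of pan (46.5%) ranged from 2.5% to 61.4% with a library left out. The low value arose without replicate 2, because the last stretch then broke in 2 and ended in a single interval of replicate 3. The cause of the other changes was not tested. Read depth is unknown, and the 6 intervals of pan in replicate 1 limit every share computed there. No paired analysis was possible because the libraries form a single group.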

Other observations

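Neighbouring calls in replicate 2 were often separated by a few nucleotides. In Hipk, 19 of the 73 gaps between neighbouring intervals of that library were 5 nt or less, and in pan 22 of 75 were. In replicate 3 these were 1 of 20 and 3 of 19, and in replicate 1 they were 0 of 15 and 0 of 5. Joining neighbours of the same gene within 10 nt lowered the number of intervals of replicate 2 by 33.8% in Hipk and 38.2% in pan, against 24.9% over all genes. The share of pan in replicate 2 then went from 0.210% to 0.173%, and that of Hipk from 0.205% to 0.181%. The joined shares of pan were 0.158%, 0.173% and 0.146% in replicates 1, 2 and 3. The cause of the narrow gaps was not tested.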
